A study of Homo sapiens with 6 samples.

Results

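The genes described here are the feedback genes of the extracellular signal-regulated kinase (ERK) pathway, namely the phosphatase genes DUSP4, DUSP5 and DUSP6, the Sprouty genes SPRY1, SPRY2 and SPRY4, their relatives SPRED1 and SPRED2, and the transcription factor genes EGR1 and ETV5. They were taken by name and make up 10 of the 20033 protein-coding genes with a canonical transcription start site (TSS) in GENCODE v44. For each gene, the peaks of H3K27ac (acetylated lysine 27 of histone H3, a mark of active promoters and enhancers) were read in 2 windows. The promoter window reached 2500 bases to each side of the canonical TSS, and the locus was the gene body with 20 kb on each side. "Promoter bases" and "locus bases" are the numbers of bases of these windows that lay under peaks.

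The study used CUT&Tag, which tags the DNA around a modified histone with a transposase that an antibody brings there, in the human acute myeloid leukemia lines Kasumi-1 and MV4-11. Each line had 1 H3K27ac peak list from cells in which ANP32B, which encodes a nuclear phosphoprotein and histone chaperone, was knocked down by a lentiviral short hairpin RNA under puromycin selection (sh-ANP32B). Each line also had 1 list from control cells (NC), which the labels call untreated and the methods describe as carrying a control hairpin. The methods name 3 hairpins against ANP32B and do not say which was used for these libraries. The comparison of NC with sh-ANP32B asks whether H3K27ac at a gene changed with the knockdown. Of the 6 samples, the 2 IgG samples are not analysed here. Replicates were merged before peaks were called, so no value has a replicate error and no test was possible. Each difference below compares 1 library with 1 other library. Read depth is unknown, and a peak list gives the extent of a region and not its height. In such bulk samples, fewer cells with the mark and less mark per cell cannot be told apart.

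ERK is the last kinase of the RAS, RAF and MEK cascade, which carries signals from receptors such as FLT3 and KIT. Its activity switches on genes whose products turn the same cascade down, so their transcription is widely read as a sign of ERK output. DUSP proteins remove phosphate from ERK itself, Sprouty and SPRED proteins act higher up on RAS and RAF, and EGR1 and ETV5 are transcription factors induced by the pathway. Both FLT3 in MV4-11 and KIT in Kasumi-1 are mutated receptors that feed this cascade.

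The 4 lists held 22136 to 24523 peaks on chromosomes 1 to 22, X and Y, which covered 32.7 Mb in the Kasumi-1 control, 33.7 Mb after knockdown, 27.9 Mb in the MV4-11 control and 23004402 bases after knockdown. The smallest peak was 357, 354, 289 and 275 bases wide in the same order, so the lists also differed in how narrow a peak they could hold. The promoter of ANP32B was covered over 3447, 3432, 3433 and 2631 bases, which does not measure the knockdown of its RNA. Most genes typical of 1 line did not match the names of the libraries. Of 7 genes typical of MV4-11 (HOXA7, HOXA9, HOXA10, MEIS1, PBX3, MEF2C and FLT3), 7 had a promoter peak in the library labelled Kasumi-1 NC, over 22566 bases in sum, and 4 in the one labelled MV4-11 NC, over 7053 bases. After knockdown 6 had one in Kasumi-1, over 21551 bases, and 5 in MV4-11, over 6160. Of 5 genes typical of Kasumi-1, the libraries labelled Kasumi-1 had a promoter peak at CD34, over 180 and 132 bases, and RUNX1T1, POU4F1, KIT and TRH were at 0 in all 4 libraries. Of 7 myeloid genes, 4 had a promoter peak in both Kasumi-1 libraries. In MV4-11 they were 4 in the control and 2 after knockdown. T cell, erythroid and non-blood genes were at 0, while 2 of 3 B cell genes had a promoter peak in both Kasumi-1 libraries and 1 in both MV4-11 libraries. Some markers ran with the labels. LYZ had promoter bases only in MV4-11, 683 in the control and 324 after knockdown. MEIS1 had 3337 in the MV4-11 control against 3103 in the Kasumi-1 control. After knockdown MEIS1 ran the other way, at 3123 in MV4-11 against 3264 in Kasumi-1. Over all genes, promoter bases in the MV4-11 control were 0.558 of those in the Kasumi-1 control. An exchange of the lines was not tested. The names below are those of the labels, and comparisons of NC with sh-ANP32B within a line do not depend on them.

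All of the genes but SPRED1 were marked in at least 1 library. A promoter peak was found at 9 of the 10 genes in Kasumi-1 NC, where 47.7% of all protein-coding genes had one, and at 9 in Kasumi-1 sh-ANP32B, where 45.3% did. In the MV4-11 control 8 of the 10 had one, beside 35.8% of all genes, and after knockdown 8 did, beside 28.6%. No gene of the group lost its promoter peak with ANP32B knockdown, 0 of 9 in Kasumi-1 and 0 of 8 in MV4-11, where 6.84% and 24.4% of all genes with an NC promoter peak lost it. What changed was the number, place and width of the peaks in the promoter windows, and this differed from gene to gene.

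**Figure D1:**
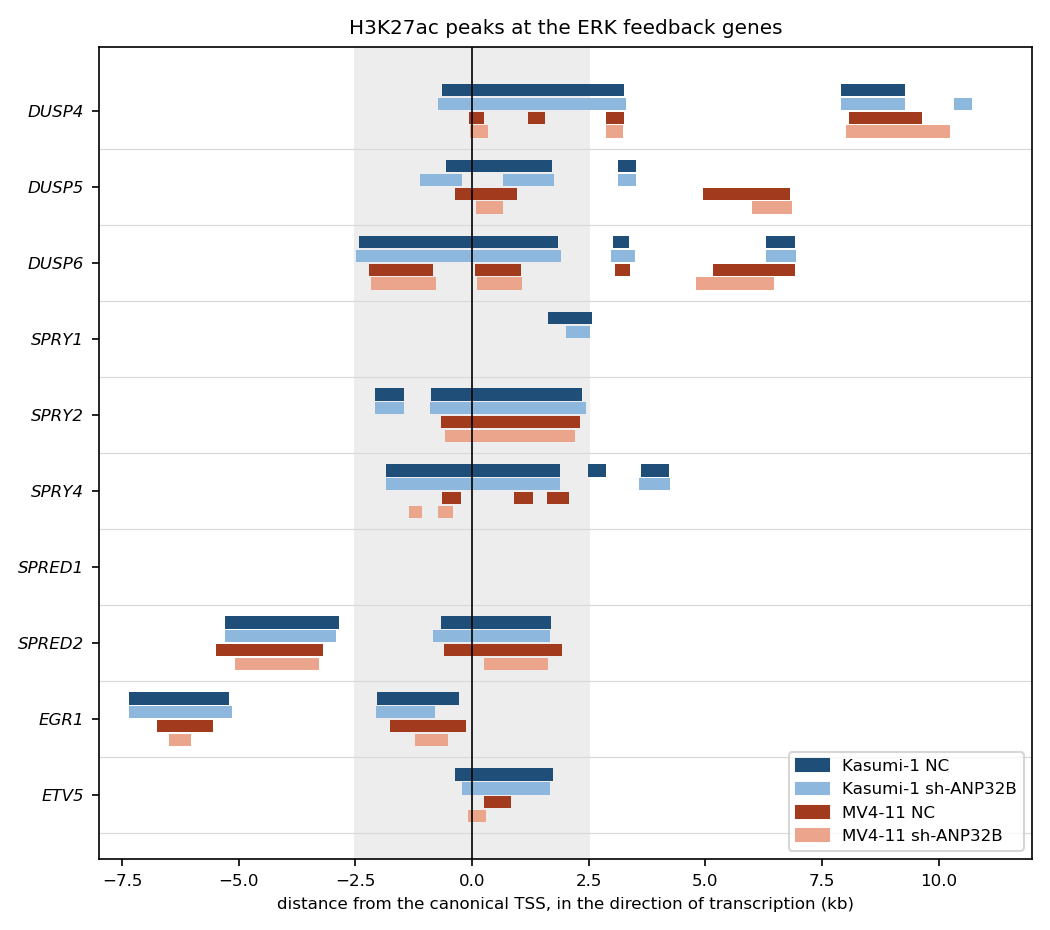
H3K27ac peaks (bars) of the 4 libraries (colours) by distance from the canonical TSS in kb, in the direction of transcription, with the promoter window shaded; peaks farther than 8 kb upstream or 12 kb downstream are not drawn. DUSP6, DUSP4, SPRY4 and SPRY2 have the widest promoter peaks in Kasumi-1, the EGR1 peak lies upstream of the TSS and ends farther from it in both sh-ANP32B libraries, and SPRED1 has no peak.

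In Kasumi-1, the promoter bases of the 10 genes came to 24385 in NC and 23450 in sh-ANP32B, a ratio of 0.962, beside 0.960 over all protein-coding genes. In MV4-11 they came to 13357 in NC and 9147 in sh-ANP32B, a ratio of 0.685 beside 0.721 over all genes. The total thus changed little in Kasumi-1 and was lower after knockdown in MV4-11, in each line close to the figure for all genes. Base by base, Kasumi-1 kept 22344 of its 24385 marked promoter bases, lost 2041 and gained 1106, and MV4-11 kept 8234 of 13357, lost 5123 and gained 913. Where both libraries of a line had a promoter peak, the median log2 ratio of knockdown to control was -0.0046 for 9 genes of the group and 0.0041 for 8899 genes in Kasumi-1. In MV4-11 it was -0.89 for 8 genes of the group and -0.27 for 5419 genes, of which the middle 50% lay between -0.69 and -0.0085. In the lists as deposited, all 8 genes had fewer promoter bases in MV4-11 sh-ANP32B than in MV4-11 NC. So did 78.1% of all genes with a promoter peak in either library. The DUSP4 direction turned under other processing, and the group median of -0.89 lies between DUSP4 (-0.889) and SPRED2 (-0.893).

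**Figure D2:**
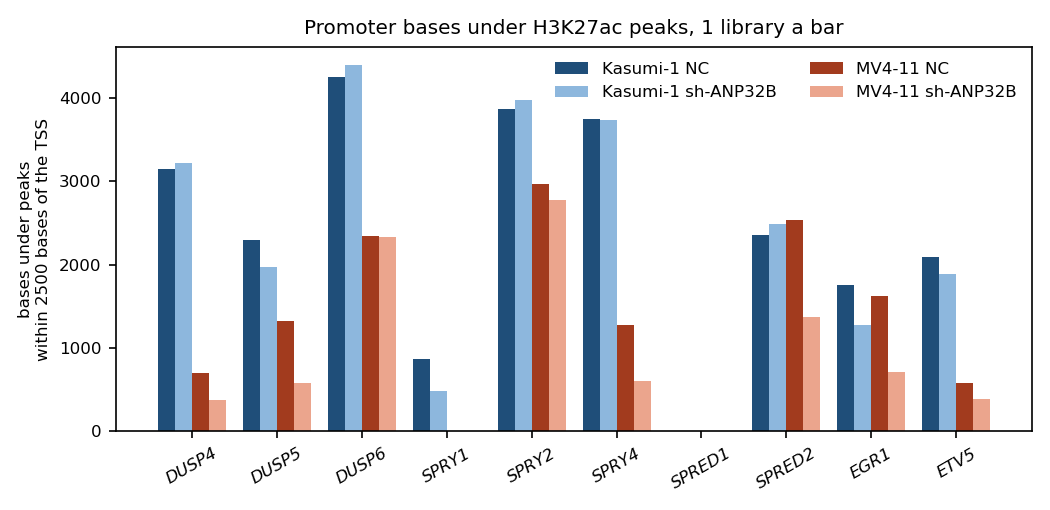
Bases under peaks within 2500 bases of the TSS for each gene, 1 bar for each of the 4 libraries, with no error bars because each group has 1 library. In MV4-11, sh-ANP32B lies below NC at each of the 8 genes with a peak, by 2331 against 2343 bases at DUSP6 and by 709 against 1628 at EGR1.

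A difference of at least 1.5-fold, or a peak in only 1 of the libraries compared, was counted as a call. In Kasumi-1, 1 of 9 genes (SPRY1) was called lower in promoter bases, beside 14.6% of all genes, and 0 were called higher, beside 4.89%. In MV4-11, 5 of 8 genes (DUSP4, DUSP5, SPRY4, SPRED2 and EGR1) were called lower, beside 45% of all genes, and 0 higher, beside 7.28%. The share of 5 of 8 is not far from that background and is not read as a result about these genes, and the DUSP4 call turned under other processing. At a fold of 2 in the lists as deposited, DUSP5, SPRY4 and EGR1 still passed in MV4-11, and no gene passed in Kasumi-1. The SPRY4 value rests on narrow peaks. Locus bases summed to 34255 and 33767 in Kasumi-1, a ratio of 0.986 beside 1.01 over all genes, and to 25520 and 19460 in MV4-11, a ratio of 0.763 beside 0.794. In locus bases, 1 of 9 genes (SPRY1) was called lower in Kasumi-1, beside 8.8% of all genes, and 0 higher, beside 5.68%. In MV4-11, 2 of 9 genes (SPRY4 and EGR1) were called lower in locus bases, beside 39.4%, and 0 higher, beside 7.65%.

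**Figure D3:**
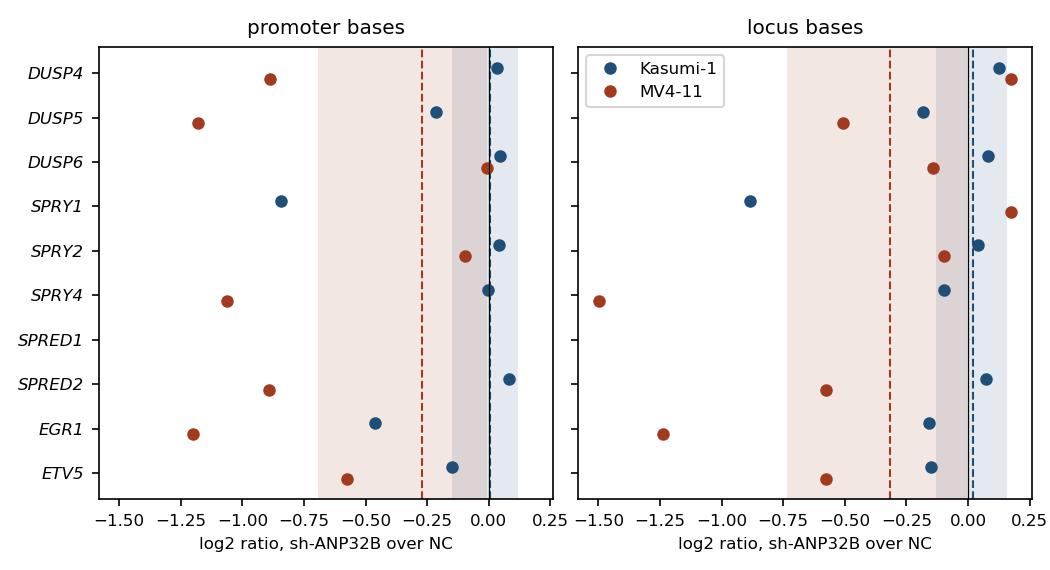
Log2 ratio of sh-ANP32B to NC in promoter bases (left) and locus bases (right) for each gene (points) in Kasumi-1 (blue) and MV4-11 (red); dashed lines are the medians and shaded bands the middle 50% of all genes with bases in both libraries. The MV4-11 points of DUSP5, SPRY4 and EGR1 lie below -1 in promoter bases, and those of DUSP6 and SPRY2 lie near 0 in both lines.

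The 3 phosphatase genes behaved differently from each other. DUSP6 encodes the cytoplasmic phosphatase that is most specific for ERK, DUSP4 a nuclear phosphatase that also acts on other MAP kinases, and DUSP5 a nuclear phosphatase specific for ERK. DUSP6 (chr12:89347235-89352501, hg38, minus strand) had 4255 promoter bases in the Kasumi-1 control and 4394 after knockdown, against 2343 in the MV4-11 control and 2331 after knockdown. These values exceeded those of at least 95.9% of all genes in each library, and they moved little with knockdown. In Kasumi-1 a single peak of 4255 bases in NC and 4394 in sh-ANP32B spanned the TSS. In MV4-11 the TSS lay in a gap between a peak upstream and a peak that began 73 bases downstream in NC and 112 bases downstream in sh-ANP32B. Downstream of the gene, a further peak was present in all 4 libraries, with 627, 639, 1758 and 1672 bases.

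The sequence before the DUSP6 start is shown because it was covered in both Kasumi-1 libraries and uncovered in both MV4-11 libraries. It is the RefSeq promoter (GRCh38.p14), chr12:89352502-89352751 on the minus strand, written 5′ to 3′ up to the base before the TSS. Capitals in this and the following sequences mark matches, on either strand, to the motifs ETS (CCGGAAG), PU.1 (GAGGAAGT), CIC (TGAATGAA or TGAATGGA), CRE (TGACGTCA), AP-1 (TGANTCA), EGR (GCGNGGGCG), RUNX (TGTGGTT), E-box (CACGTG) and the CArG box of serum response factor. ETS and PU.1 share the letters GGAAG. A match describes letters only and is not a bound site. The DUSP6 stretch holds none of these letters.
DUSP6 promoter: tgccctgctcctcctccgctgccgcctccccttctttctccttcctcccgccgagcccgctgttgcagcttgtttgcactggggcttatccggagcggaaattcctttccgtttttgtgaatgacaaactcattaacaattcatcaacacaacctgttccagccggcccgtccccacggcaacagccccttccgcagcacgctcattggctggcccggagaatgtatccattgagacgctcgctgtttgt

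DUSP4 (chr8:29333064-29350684, minus strand) had 3151 promoter bases in the Kasumi-1 control and 3224 after knockdown, against 702 in the MV4-11 control and 379 after knockdown. In both Kasumi-1 libraries 1 peak of 3907 and 4023 bases covered the start of the gene and part of intron 1. In MV4-11 the same stretch held separate peaks of 329 to 379 bases, of which NC had 2 and sh-ANP32B 1 in the promoter window. The MV4-11 ratio of 0.54 rests on these narrow peaks. It came to 1.02 when the 4 lists were given 1 common minimum width and joining gap, and to 1.15 in a window of 1000 bases, so the direction depended on the processing. An element in intron 1, 7.9 to 10.2 kb from the TSS, was marked in all 4 libraries over 1377, 1367, 1568 and 2233 bases. In locus bases DUSP4 was somewhat higher in sh-ANP32B in both lines, at 5771 against 5284 in Kasumi-1 and at 2984 against 2642 in MV4-11.

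DUSP5 (chr10:110497907-110511533, plus strand) had 2291 promoter bases in the Kasumi-1 control and 1977 after knockdown, against 1321 in the MV4-11 control and 583 after knockdown. The gene was lower in sh-ANP32B in both lines, within 1.5-fold in Kasumi-1 and by 2.27-fold in MV4-11. The Kasumi-1 direction depended on the processing, with a ratio of 0.863 in the lists as deposited, 1.25 with peaks joined at up to 1000 bases and 0.476 with only peaks of at least 1000 bases. In Kasumi-1 NC 1 peak ran from -568 to 1722 bases relative to the TSS, and in sh-ANP32B it was replaced by a pair of peaks of 887 and 1090 bases with the stretch from -222 to 666 between them uncovered. In MV4-11 the NC peak ran from -357 to 963 and the sh-ANP32B peak from 91 to 673. The bases from -222 to 90, 313 in number, were marked in both NC libraries and in neither sh-ANP32B list as deposited. Joining at up to 1000 bases closes the 889-base Kasumi-1 gap. An element in intron 2, near 5 to 6.9 kb from the TSS, was marked only in MV4-11, over 1857 bases in NC and 852 in sh-ANP32B.

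The Sprouty and SPRED genes ranged from 0 bases at SPRED1 to Kasumi-1 peaks above 3 kb at SPRY2 and SPRY4. SPRY2 (chr13:80335976-80341126, minus strand), whose product restrains receptor signalling to RAS, had 3865 promoter bases in the Kasumi-1 control and 3979 after knockdown, against 2972 in the MV4-11 control and 2780 after knockdown. It exceeded at least 98.2% of all genes in each of the 4 libraries, and the NC and sh-ANP32B values were within 1.5-fold in both lines. One peak of 2780 to 3347 bases covered the TSS in every library. A smaller peak upstream, of 633 and 632 bases, was present in Kasumi-1 only. The 250 bases before the SPRY2 start are shown because they lay under a peak in all 4 libraries and hold the EGR motif, the letters read by EGR1. They are the RefSeq promoter (GRCh38.p14), chr13:80341127-80341376 on the minus strand.
SPRY2 promoter: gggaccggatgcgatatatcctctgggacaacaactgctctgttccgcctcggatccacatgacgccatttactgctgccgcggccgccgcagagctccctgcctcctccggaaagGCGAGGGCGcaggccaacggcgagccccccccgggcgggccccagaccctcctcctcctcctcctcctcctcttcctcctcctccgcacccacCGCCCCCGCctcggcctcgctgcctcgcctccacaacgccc

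The SPRY2 stretch holds 2 matches to the EGR motif, starting at -134 and -41 from the TSS. Of 21597 RefSeq promoters of protein-coding genes, 11.0% hold at least 1 in the same 250 bases. Among the 6 genes of the group whose RefSeq start is the canonical TSS (DUSP6, SPRY1, SPRY2, SPRED1, SPRED2 and EGR1), 2 hold it, SPRY2 and EGR1. None of the 6 holds the ETS motif, found in 10.8% of promoters, or the CIC motif, found in 1.87%, within these 250 bases. This says only that the exact letters are missing from these stretches. DUSP4, DUSP5 and ETV5 were not among the sequences used, and SPRY4 has another start there.

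SPRY4 (chr5:142310427-142326455, minus strand), a further inhibitor of RAS activation, had 3746 promoter bases in the Kasumi-1 control and 3734 after knockdown, against 1272 in the MV4-11 control and 609 after knockdown. Kasumi-1 showed 1 peak of 3734 bases over the TSS in both libraries. MV4-11 showed only fragments. NC had 3 peaks of 388, 403 and 481 bases in the window and sh-ANP32B 2 of 292 and 317 bases, none of which covered the TSS. The promoter bases were 2.09-fold lower in MV4-11 sh-ANP32B than in NC and the locus bases 2.83-fold lower, at 609 against 1721. These folds rest on the narrow fragments and depend on how they are joined. A pair of the NC fragments and the pair of sh-ANP32B fragments each lay within the joining gap of 358 bases tried below. Joining therefore adds marked bases in both libraries. A peak 17 kb upstream, of 449 bases, was found in MV4-11 NC alone.

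SPRY1 (chr4:123396795-123403760, plus strand), the remaining Sprouty gene, was weakly marked. It had 869 promoter bases in the Kasumi-1 control, 485 after knockdown and 0 in both MV4-11 libraries. The canonical TSS was uncovered in all 4 libraries. The Kasumi-1 peak lay in intron 2 of the canonical transcript, from 1632 to 2568 bases downstream in the control. After knockdown it lay between 2016 and 2523, a 1.79-fold difference in promoter bases. RefSeq also lists a SPRY1 start at chr4:123398386, just upstream of this peak, which began at 123398427 in the control and at 123398811 after knockdown. MV4-11 instead had 2 peaks beyond the end of the gene, 19.3 to 22 kb from the TSS, of 538 and 425 bases in NC and of 726 and 361 in sh-ANP32B. These elements were not seen in Kasumi-1, so the marked bases of SPRY1 lay at different places in the lines.

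SPRED2 (chr2:65310851-65432637, minus strand) encodes an inhibitor of RAF activation. It had 2354 promoter bases in the Kasumi-1 control and 2492 after knockdown, against 2542 in the MV4-11 control and 1369 after knockdown. It was the only gene of the group with more promoter bases in MV4-11 NC than in Kasumi-1 NC, by a ratio of 1.08 that was 0.972 in a window of 1000 bases. Knockdown left it within 1.5-fold in Kasumi-1 and was accompanied by a 1.86-fold lower value in MV4-11. There the bases from -611 to 253 lost the mark, and the remaining peak began 254 bases downstream of the TSS. An element upstream, about 3 to 5 kb from the TSS, was marked in all 4 libraries over 2465, 2378, 2293 and 1801 bases. In intron 1, near 73 kb, a peak was found in every library but Kasumi-1 NC, with 385, 926 and 1011 bases. In locus bases, SPRED2 had 5551, 5835, 6229 and 4181.

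A stretch from the promoter and one from the upstream element of SPRED2 are shown. The first is the part of the RefSeq promoter (GRCh38.p14) before any annotated exon, chr2:65432638-65432849 on the minus strand, which was marked in 3 libraries and lost in MV4-11 sh-ANP32B. The other is the centre of the upstream element that all 4 libraries share, chr2:65436637-65436936 on hg38, read on the strand of the gene.
SPRED2 promoter: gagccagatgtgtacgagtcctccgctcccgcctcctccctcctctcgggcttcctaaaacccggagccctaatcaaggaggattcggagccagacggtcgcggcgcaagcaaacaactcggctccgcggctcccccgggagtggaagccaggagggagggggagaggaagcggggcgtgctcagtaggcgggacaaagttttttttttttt
SPRED2 upstream element: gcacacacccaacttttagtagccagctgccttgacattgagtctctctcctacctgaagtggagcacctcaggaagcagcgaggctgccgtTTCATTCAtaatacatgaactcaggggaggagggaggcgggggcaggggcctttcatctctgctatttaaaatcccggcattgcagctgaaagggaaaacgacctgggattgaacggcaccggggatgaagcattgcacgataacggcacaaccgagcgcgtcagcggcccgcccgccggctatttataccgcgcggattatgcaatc

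The lost promoter stretch holds no match. The upstream element holds 1 match to the CIC motif at -4245, on the reverse strand. CIC is a repressor that ERK signalling inactivates. The motif is found in 2.30% of the 300-base centres of all 92090 peaks wide enough to hold one.

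SPRED1 (chr15:38252836-38357249, plus strand), which encodes the SPRED protein that recruits neurofibromin to RAS, had no peak in any library. Neither its promoter window nor its locus of 144.4 kb held a marked base. The 250 bases before its RefSeq start have a GC content of 78.4%, against 57.2% for DUSP6, 70.4% for SPRY2 and 68.4% for EGR1. The SPRED2 stretch of 212 bases has 61.8%. SPRY1, whose canonical TSS was also uncovered in every library, has 45.6%. Without peak heights or depth, 0 bases means that no region passed the caller, and not that the mark was absent.

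At EGR1, the edge of the marked region nearest to the TSS lay farther upstream after knockdown in both lines. EGR1 is an immediate early gene, switched on within minutes of ERK activation through serum response factor and its ETS partners at CArG boxes. It lies at chr5:138465479-138469303 on the plus strand and had 1762 promoter bases in the Kasumi-1 control and 1279 after knockdown, against 1628 in the MV4-11 control and 709 after knockdown. NC was 1.38-fold above sh-ANP32B in Kasumi-1 and 2.30-fold in MV4-11. In all 4 libraries the promoter peak lay upstream and left the TSS uncovered. Its near edge was 272 bases from the TSS in the Kasumi-1 control and 785 after knockdown, and in MV4-11 the distances were 128 and 514 bases. How many of all genes show such a shift in both lines was not counted. In the lists as deposited, DUSP5 lost more promoter bases in both lines, 313 against 242 at EGR1. In a window of 1000 bases, the Kasumi-1 ratio of sh-ANP32B to NC was 0.296 in place of 0.726.

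The bases from -513 to -272 of EGR1 were marked in both NC libraries and in neither sh-ANP32B library. They are chr5:138464966-138465207 on hg38, 242 bases, and are shown with the 250 bases before the TSS, the RefSeq promoter (GRCh38.p14) at chr5:138465229-138465478.
EGR1 bases lost in both lines: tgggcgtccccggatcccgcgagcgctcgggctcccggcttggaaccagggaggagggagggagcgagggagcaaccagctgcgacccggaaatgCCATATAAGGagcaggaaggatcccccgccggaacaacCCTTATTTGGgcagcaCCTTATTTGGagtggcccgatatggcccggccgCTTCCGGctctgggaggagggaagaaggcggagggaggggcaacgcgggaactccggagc
EGR1 promoter: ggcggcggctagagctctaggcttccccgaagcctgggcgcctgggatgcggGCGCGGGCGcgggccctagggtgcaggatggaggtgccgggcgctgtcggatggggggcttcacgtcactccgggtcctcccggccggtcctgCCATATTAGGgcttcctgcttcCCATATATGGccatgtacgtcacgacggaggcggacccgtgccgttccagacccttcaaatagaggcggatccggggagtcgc

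The stretch that lost the mark in both lines holds 3 CArG boxes, which start between -418 and -364, and 1 ETS motif at -331. At the same distance from the TSS of all 20033 genes, 1.16% of stretches hold a CArG box and 3.34% the ETS motif. The 250 bases before the TSS hold 2 more CArG boxes, at -105 and -83, and 1 EGR motif at -198. A CArG box is found in 1.19% of the RefSeq promoters. The CArG boxes at -105 and -83 were outside the peak in all 4 libraries.

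A further EGR1 element, 5 to 7.4 kb upstream, was marked in all 4 libraries over 2140 bases in the Kasumi-1 control and 2215 after knockdown, and over 1189 in the MV4-11 control and 487 after knockdown. It did not narrow in Kasumi-1 and narrowed in MV4-11 along with the promoter peak. The locus bases of EGR1 were 3902 in NC and 3494 in sh-ANP32B for Kasumi-1. For MV4-11 they were 2817 and 1196, a 2.36-fold lower value after knockdown.

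ETV5 (chr3:186046314-186110318, minus strand), an ETS factor induced by receptor and RAS signalling, had 2092 promoter bases in the Kasumi-1 control and 1886 after knockdown, against 577 in the MV4-11 control and 387 after knockdown. In Kasumi-1 1 peak covered the TSS in both libraries. In MV4-11 the NC peak lay from 258 to 834 bases downstream and the sh-ANP32B peak from -95 to 291 across the TSS, so the lists shared only 34 bases there. The MV4-11 value was 1.49-fold lower after knockdown, just inside the limit for a call. No other peak was found within 20 kb of the gene. The peaks also lay within the annotated body of DGKG.

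The TSS lay under a peak at 7 of the 10 genes in Kasumi-1 NC and at 6 in Kasumi-1 sh-ANP32B, beside 41.3% and 35.2% of all genes. In MV4-11 it did so at 4 of 10 in the control and at 3 after knockdown, beside 23.8% and 16.5%. The net change was 1 gene in each line, in the direction of all genes, and is not read as a result about these genes. DUSP5 lost this cover in both lines, SPRED2 lost it in MV4-11, and ETV5 gained it in MV4-11. The bases that lost the mark in the Kasumi-1 promoter windows of the group were richer in GC than those that kept it, with 71.4% of 2041 bases against 61.9% of 22344. DUSP5, EGR1 and SPRY1 held most of them, with 889, 513 and 384 lost bases of 75.6%, 71.0% and 77.1% GC. Over all genes the figures were 66.8% for lost and 60.9% for kept bases. In MV4-11 the lost bases of the group had 62.7% GC and the kept bases 65.8%, and over all genes 60.1% and 60.8%. The part of GC content in the Kasumi-1 losses was not tested.

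Outside the promoter windows, the ratios of knockdown to control in the group were close to those of all genes, while the ratio between the NC libraries was not. The rest of the 10 loci held 9870 marked bases in the Kasumi-1 control and 10317 after knockdown, and 12163 in the MV4-11 control and 10313 after knockdown. Knockdown over control gave 1.05 in Kasumi-1 and 0.848 in MV4-11, beside 1.03 and 0.815 over all genes. Between the NC libraries, MV4-11 held 1.23 times the bases of Kasumi-1 outside the promoters of these genes, where all genes together had a ratio of 0.764. The widest differences in this direction were at DUSP5, DUSP6 and SPRY1, with 1857 against 385, 2078 against 984 and 963 against 68 bases. SPRED2 was also higher, at 3687 against 3197. EGR1, SPRY4 and DUSP4 were lower in MV4-11, at 1189 against 2140, 449 against 963 and 1940 against 2133, so 4 of the 7 genes with such bases were higher and 3 lower. The first 3 genes were singled out after their values were seen. The share of all genes that were higher in MV4-11 outside the promoters was not counted. The ratio of 1.23 was not tried under other processing, and it carries the doubt about the names of the lines.

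**Figure D4:**
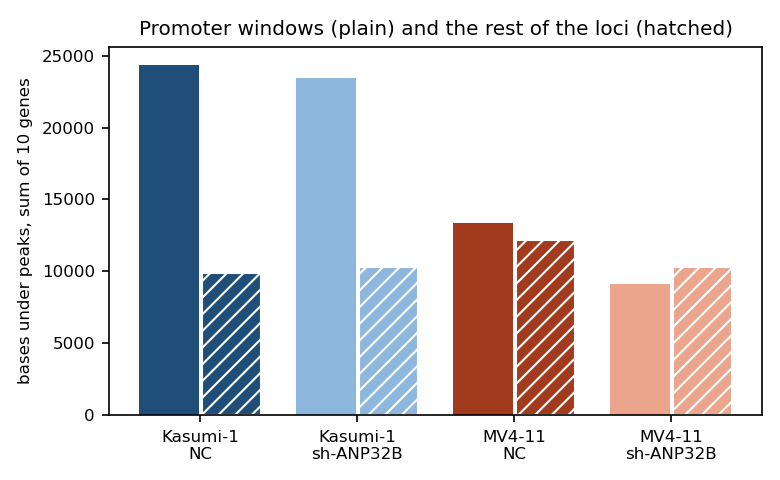
Bases under peaks summed over the 10 genes, in promoter windows (plain bars) and in the rest of the loci (hatched bars), for each of the 4 libraries. Promoter bases range from 24385 in Kasumi-1 NC to 9147 in MV4-11 sh-ANP32B, while the rest of the loci lies between 9870 and 12163.

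Peaks of the 4 libraries that overlapped were joined into 26 regions, of which 11 touched a promoter window and 15 did not. Of the 11 promoter regions, 8 were marked in all 4 libraries, and of the 15 others, 4 were, at DUSP4, DUSP6, SPRED2 and EGR1. The same shares over all genes were not counted. In Kasumi-1, 18 of the 19 NC peaks of the loci overlapped a sh-ANP32B peak (94.7%, Wilson 95% interval 75.4% to 99.1%), beside 91.0% of all NC peaks. In MV4-11, 18 of 24 did (75%, 55.1% to 88.0%), beside 70.9%. These intervals cover counting error only and include the figures for all peaks. No peak of the group reached the 500 highest stitched domains (peaks not wholly inside a promoter window, joined across gaps and ranked by summed width) in any library. How many of all gene loci reach them was not counted, so this is not read as a result about these genes. In Kasumi-1 the best rank was that of DUSP4, 1032 of 7685 in the control and 966 of 8081 after knockdown. DUSP4 was also best in MV4-11 after knockdown, at 1895 of 9268. In the MV4-11 control, DUSP4 at 3081 of 9990 came after SPRED2 at 2572 and DUSP6 at 2856. The 4 DUSP4 ranks are not alike. The Kasumi-1 domains take in the wide peak over the DUSP4 TSS, of 3907 and 4023 bases, and the MV4-11 domains do not.

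Between the NC libraries, which carry the doubt about the names of the lines, promoter bases were called lower in MV4-11 at 6 of 9 genes (DUSP4, DUSP5, DUSP6, SPRY1, SPRY4 and ETV5), beside 61.9% of all genes, and higher at 0, beside 5.87%. The summed ratio was 0.548 for the group and 0.558 for all genes. In locus bases 3 of 9 (DUSP4, SPRY4 and ETV5) were called lower, beside 50.9%, and 0 higher, beside 14.8%. The order of the genes by promoter bases in Kasumi-1 NC began with DUSP6, SPRY2, SPRY4 and DUSP4. In MV4-11 NC it began with SPRY2, SPRED2, DUSP6 and EGR1, while DUSP4 was in the seventh place. With no replicates, no distance between neighbours in these orders can be set against a spread.

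The rest of the pathway was read from a list of 53 other genes. In Kasumi-1, 44 had a promoter peak in either library, of which 9 were called lower and 0 higher. In MV4-11, 34 had one, of which 22 were called lower and 0 higher. The same backgrounds apply, 14.6% and 45% lower. By role, the other MAP kinase phosphatase genes were called lower at 1 of 5 in Kasumi-1 and 0 of 4 in MV4-11. Genes of the cascade itself were called lower at 6 of 19 and 9 of 15, and other targets and effectors of ERK at 2 of 19 and 13 of 15. Promoter peaks were lost at 2 of 44 genes in Kasumi-1, SHC1 and HRAS, beside 6.84% of all genes. In MV4-11 they were lost at 11 of 34 genes, beside 24.4%, FLT3, SOS1, CBL, NF1, BRAF, MAPK3, EGR3, ETV4, ELK1, SRF and IER3. SRF encodes serum response factor, ELK1 its ETS partner, NF1 neurofibromin, and MAPK3 the kinase ERK1. Between the NC libraries, the log2 ratio of MV4-11 to Kasumi-1 was highest at DUSP16 (1.29), NRAS (0.55) and GRB2 (0.55), and lowest at SRF (-2.42), CBL (-2.34) and FLT3 (-2.76).

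For each gene with promoter bases in all 4 libraries, the gene with the nearest values was sought by the summed absolute difference over the 4 libraries. ETV5 was nearest to AHRR, at 144 bases in sum, and DUSP4 to COX8A, at 164. DUSP5 was nearest to DGCR6L at 247, SPRED2 to FBXO5 at 313, DUSP6 to LTB4R at 316, SPRY4 to BSG at 411, SPRY2 to MBP at 417 and EGR1 to PSTPIP2 at 421. None of the nearest genes was another feedback gene. This says little about how alike the feedback genes are, since they are only 10 of the 20033 genes searched.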

How the data were processed

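H3K27ac was profiled by CUT&Tag in Kasumi-1 and MV4-11 cells with or without ANP32B knockdown. Per the labels, the authors aligned reads to hg38 with Bowtie2 2.4.4 and called peaks with MACS3 3.0, whereas the methods name another Bowtie2 version and MACS2, with duplicates removed by Picard and replicates merged before calling. Whether IgG served as control is not stated. The deposited lists give the start, end and length of each peak in bases, with no height, p-value or read count, so the depth of each library is unknown. All peaks lay within the hg38 sequences. Groups came from the labels.

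Overlaps were computed with Python 3.11.15, numpy 2.4.6, pandas 2.3.3 and scipy 1.17.1, and figures with matplotlib 3.10.9. The scripts were tested on simulated peaks. Canonical starts were those of GENCODE v44. A change was called at 1.5-fold. Named genes were the 10 feedback genes, ANP32B, marker genes, neighbours whose promoter shares a peak (none was found), pathway genes that lost or gained a promoter peak or had the 3 highest or lowest NC ratios, and the gene nearest to each feedback gene. The genes and lists were chosen with earlier results of these data known. A stricter q-value could not be used because the lists hold none.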

Additional observations from a re-analysis of the deposited data

Results flagged for a closer look

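At some genes the promoter or locus bases were higher after knockdown in Kasumi-1 and lower in MV4-11, or the reverse. Such a difference could not be tested with 1 library in each group, and was not tested. In promoter bases, the log2 ratio of sh-ANP32B to NC was lower in MV4-11 than in Kasumi-1 by a difference of -0.92 at DUSP4, -0.054 at DUSP6, -0.14 at SPRY2 and -0.98 at SPRED2. The Kasumi-1 log2 ratios behind these differences were between 0.033 and 0.082, and all 4 genes were within 1.5-fold in that line. In locus bases the difference was -0.22 at DUSP6, -0.14 at SPRY2 and -0.65 at SPRED2. SPRY1 went the other way, with a difference of 1.06, from a log2 ratio of -0.88 in Kasumi-1 to 0.17 in MV4-11, and its peaks lay at different places in the lines. The DUSP4 difference rests on MV4-11 peaks of 329 to 379 bases.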

How the results depend on the processing

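12 alternatives were tried, all chosen with earlier results known. The summed promoter and locus ratios stayed within 1.5 times the reported values under each one that applied. For the ratios of sh-ANP32B to NC this range takes in a ratio of 1, so it does not show that their direction was kept. The Kasumi-1 promoter ratio lay between 0.934 and 0.974 under the alternatives. DUSP4 promoter bases in MV4-11 reversed, with ratios of 1.15 in a window of 1000 bases, 1.02 with 1 common minimum width of 357 bases and joining gap of 358, and 1.02 with the 22136 widest peaks of each list. DUSP5 promoter bases in Kasumi-1, within 1.5-fold in the lists as deposited, changed direction to 1.25 with joined peaks, and its locus bases to 1.21 with joined peaks and 1.22 with a flank of 50000 bases. With only peaks of at least 1000 bases, 5 genes had a promoter peak in MV4-11 NC and 3 in sh-ANP32B, 3 were called lower in promoter bases in MV4-11, the Kasumi-1 share of locus peaks kept was 100%, and 10 other pathway genes were called lower and 1 higher in MV4-11. A window of 5000 bases gave 3 genes lower in promoter bases in MV4-11, and a fold of 2 gave 3 there. A fold of 2 gave 0 genes lower in Kasumi-1, in promoter and in locus bases. A flank of 50000 bases gave 4 genes lower in locus bases in MV4-11. Joining peaks within 1000 bases brought the Kasumi-1 share kept to 100%, and an overlap of 50% of each peak brought the MV4-11 share to 54.2%. Every annotated TSS, and likewise joined peaks, gave 1 other pathway gene higher in Kasumi-1. Leaving out peaks over other genes' promoters changed nothing, because no peak touched one. No paired analysis was possible because each group has 1 library. Depth is unknown, so narrow peaks cannot be weighed by their reads.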
